A study of Homo sapiens with 2 samples.

Results

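The 8 genes PIK3CA, PIK3CB, PIK3R1, PDPK1, AKT1, AKT2, TSC1 and MTOR encode the core of the route from phosphoinositide 3-kinase (PI3K) to the growth kinase mTOR, and they were chosen by name from 19974 protein-coding genes of the RefSeq table. The binding of TCF19, a nuclear protein whose PHD finger can bind histone tails, was profiled at them with ChIP-seq, in which an antibody pulls down the DNA around a protein for sequencing. The cells were Ishikawa, an established line from an endometrial cancer. Cells of the negative control group carried a control lentivirus and cells of the TCF19 over-expression group a lentivirus for TCF19; both were selected with puromycin and precipitated with the same TCF19 antibody. Each group had 1 library with its own list of called peaks and no replicate, so no test of the condition was possible, and intervals given here are 95% intervals that cover counting error only.

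PI3K enzymes pair a catalytic subunit with a regulatory subunit and phosphorylate a lipid of the plasma membrane. The lipid product draws PDPK1 and the AKT kinases to the membrane, where PDPK1 phosphorylates AKT. Active AKT inhibits the TSC complex, which otherwise holds the mTOR complex that drives protein synthesis in check. In endometrial carcinoma this route is often altered by mutation, PIK3CA and PIK3R1 being frequent sites.

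Over the genome, 170334 summits were listed in control and 112212 after over-expression, which is 0.659 of the control number. The reads stacked at each summit (its pileup) were recovered from the deposited statistics, and its genome average stood at 1.58 reads for control and 1.43 for over-expression. Where the local background equalled the genome average, 6 reads were the fewest called in either list. The deposited statistics match a background taken from the ChIP reads themselves, so enrichment is not to be read as corrected for an input library. TCF19 itself had 0 summits in control and 3 in the over-expression library, the highest with 143 reads. This served as a check of the group labels. Reads from the TCF19 lentivirus may be placed on this gene, so these summits are not to be read as binding. The lists hold no expression values, so the cell type was not checked against markers.

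A summit within 1000 bp of the start of the gene span was called promoter, one within 1000 bp of the other end far end, one inside the span beyond both body, and one up to 5 kb outside a flank. The starts follow the strand in the RefSeq promoter table (GRCh38.p14), which held all 8 genes. It lists further starts inside PIK3CB, PIK3R1, AKT1 and AKT2, and its start for PIK3CA and TSC1 lies 231 and 762 bp inside the span.

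The sequences before 3 of these starts are shown because a called summit lies in each. They are the 250 bases upstream of the outer PIK3R1 start (chr5:68215506-68215755, plus strand), of the second PIK3R1 start (chr5:68288269-68288518, plus strand) and of the second AKT2 start (chr19:40265352-40265601, minus strand), from RefSeq on GRCh38.p14. Capitals mark 21 bases centred on each summit; in the first sequence the summit of the over-expression library comes first and that of control second, and the other sequences each hold 1 summit of the over-expression library.
PIK3R1 outer start: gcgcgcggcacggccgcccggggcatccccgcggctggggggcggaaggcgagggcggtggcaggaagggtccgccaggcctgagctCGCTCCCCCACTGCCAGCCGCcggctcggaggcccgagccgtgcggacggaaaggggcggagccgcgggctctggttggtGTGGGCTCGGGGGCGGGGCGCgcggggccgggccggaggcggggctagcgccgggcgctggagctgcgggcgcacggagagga
PIK3R1 second start: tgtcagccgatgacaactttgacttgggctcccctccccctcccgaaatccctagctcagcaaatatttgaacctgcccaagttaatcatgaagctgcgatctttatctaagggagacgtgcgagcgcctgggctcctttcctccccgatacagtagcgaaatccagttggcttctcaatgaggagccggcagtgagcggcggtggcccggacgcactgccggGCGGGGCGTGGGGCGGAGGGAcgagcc
AKT2 second start: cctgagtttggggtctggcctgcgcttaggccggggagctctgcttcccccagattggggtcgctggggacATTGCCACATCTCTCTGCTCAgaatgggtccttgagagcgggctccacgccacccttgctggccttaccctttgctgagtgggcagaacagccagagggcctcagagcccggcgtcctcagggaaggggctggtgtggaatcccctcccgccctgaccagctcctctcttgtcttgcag

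The bases before the PIK3CB and AKT1 starts are shown as a contrast, since PIK3CB had a promoter peak in the over-expression library and AKT1 had none in either library. These are chr3:138834929-138835178 and chr14:104795749-104795998, both on the minus strand. Capitals mark the letters GGGCGG on either strand, a GC box, where copies may overlap. Neither stretch holds a called summit, as that of PIK3CB lies 446 bp after the start.
PIK3CB start: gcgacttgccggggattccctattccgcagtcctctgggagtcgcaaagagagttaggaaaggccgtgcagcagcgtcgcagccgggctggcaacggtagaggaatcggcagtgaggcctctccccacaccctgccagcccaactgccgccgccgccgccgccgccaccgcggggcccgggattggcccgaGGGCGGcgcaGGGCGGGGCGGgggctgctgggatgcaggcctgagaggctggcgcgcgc
AKT1 start: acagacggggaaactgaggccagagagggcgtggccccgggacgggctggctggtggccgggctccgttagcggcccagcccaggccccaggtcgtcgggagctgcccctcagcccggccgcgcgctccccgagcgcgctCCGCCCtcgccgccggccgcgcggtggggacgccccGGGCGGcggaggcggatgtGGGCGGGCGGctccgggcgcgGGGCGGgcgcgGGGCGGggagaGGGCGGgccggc

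The letters before the starts differed in composition between the genes. In the 300-base windows (250 bases before to 50 after a listed start), GC content at the outermost listed start ran from 59.3% at MTOR to 83.3% at AKT1, against a median of 58.7% over 34943 windows. The AKT1 window had 7 GC boxes, the PDPK1 window 7, the outer PIK3R1 window 5, AKT2 4, PIK3CB 3, TSC1 and MTOR 2 each and PIK3CA 1; 44.9% of all windows held at least 1. CCAAT on either strand was in the windows of MTOR (3 copies), PIK3CA, PIK3CB and PDPK1 (1 copy each), as it was in 34.6% of all windows. AAGATGG on either strand was found once each at TSC1 and MTOR and in 5.85% of all windows. CCGGAA on either strand had 2 copies at PIK3CA and 1 each at PDPK1 and TSC1, and in 17.2% of windows, and TGACGT once at AKT2 and in 7.97%. Such matches describe letters only, and their part in the presence or absence of calls was not tested. Among the 516 windows with at least as many GC boxes as AKT1, a called interval overlapped 25.6% in control and 47.9% in the over-expression library, against 28.3% and 39.0% of all windows.

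Summits of the over-expression library lay at the starts of 7 of the 8 genes, all but AKT1, and control summits at 3, PIK3CA, PIK3R1 and MTOR. Over the 15813 protein-coding genes with a strand in the promoter table, 61.9% had a promoter summit in the over-expression library and 49.9% in control. A promoter summit in each library was found at 3 of the 8 genes (45.4% of all genes) and neither at 1 (33.5%). The over-expression library alone had one at 4, namely PIK3CB, PDPK1, AKT2 and TSC1 (16.5% of all genes), and control alone at none of the 8 (4.58%). With 8 genes, chosen with earlier results known, these counts describe the genes and do not set them apart from others. Measured from any listed start instead, the counts were 7 and 5, because control summits lay 344 bp inside the listed TSC1 start and 738 bp inside the second PIK3CB start; all genes then stood at 66.4% in the over-expression library and 54.4% in control.

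**Figure D1:**
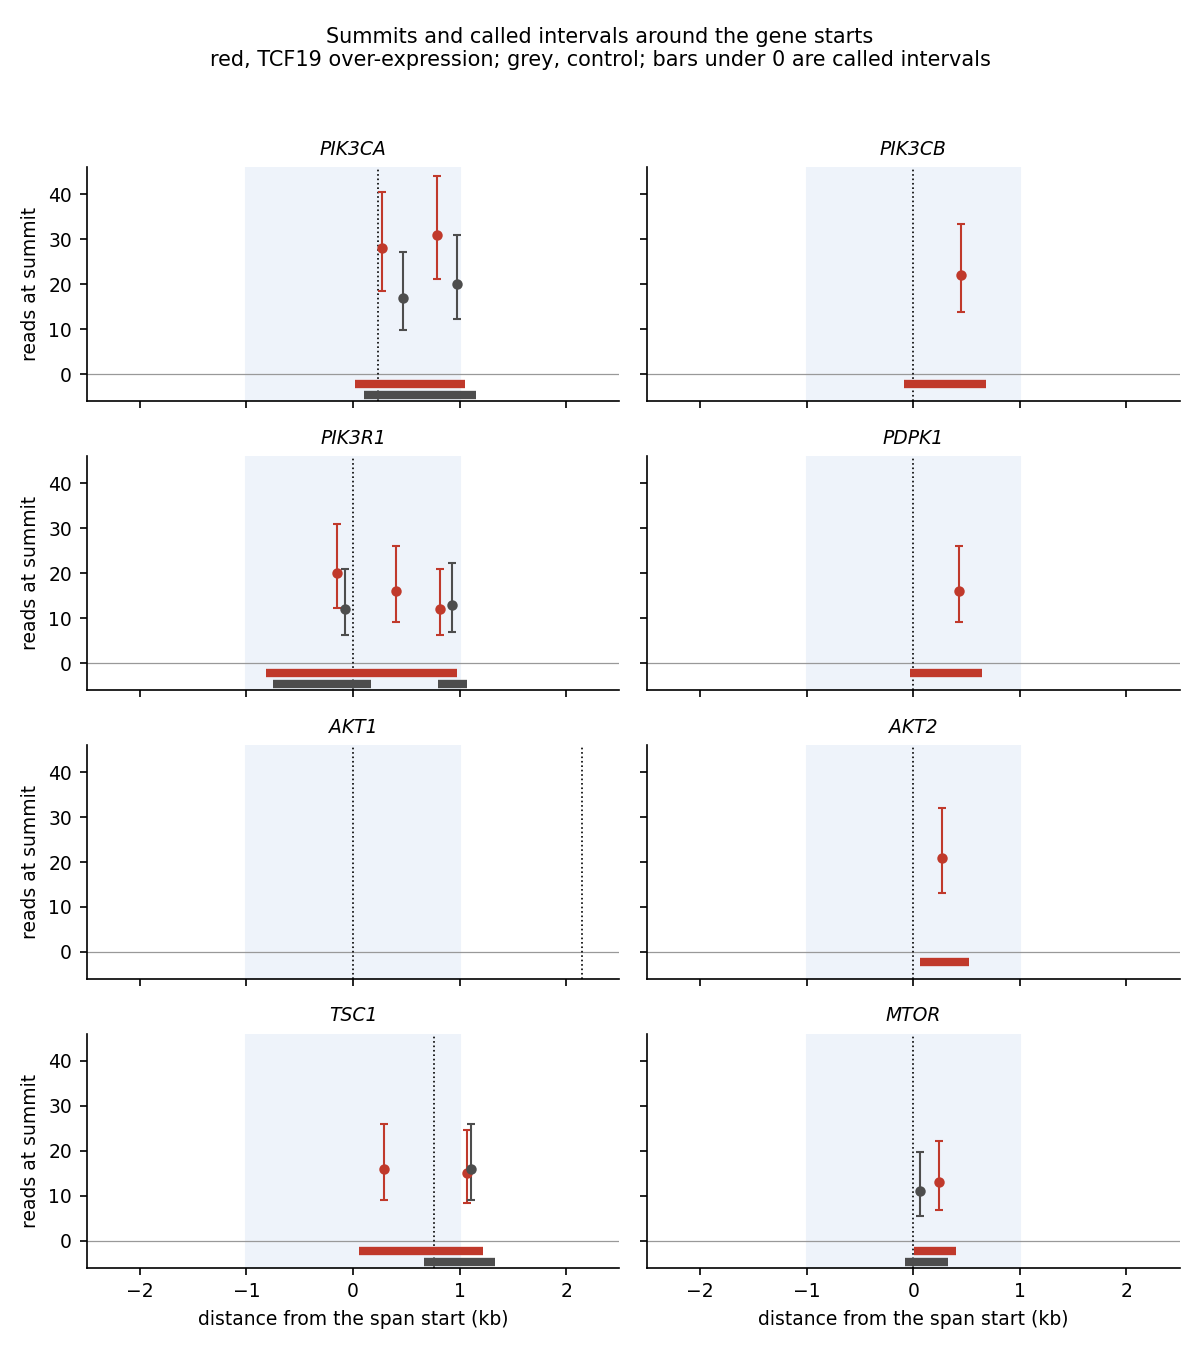
Reads at each summit (vertical axis, with exact Poisson 95% intervals) against distance from the start of the gene span in kb (horizontal axis, in the direction of transcription), with called intervals as bars under 0, listed starts as dotted lines and the 1000 bp window shaded. PIK3CB, PDPK1 and AKT2 have an over-expression interval and no control interval, TSC1 has overlapping intervals in both, and AKT1 has none.

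PIK3CA encodes the alpha catalytic subunit of PI3K (chromosome 3, 179148126 to 179240093, plus strand). Its promoter held 1 interval in each library with 2 summits apiece. The control summits had 17 reads (9.9 to 27.2) at 179148595 and 20 reads (12.2 to 30.9) at 179149100. The over-expression summits had 28 reads (18.6 to 40.5) at 179148397 and 31 reads (21.1 to 44.0) at 179148914. Both were higher in the over-expression library, by 1.82 times (exact binomial interval 0.96 to 3.55) and 1.72 times (0.95 to 3.18) once each was taken relative to its genome average, and both intervals include equality. These were the highest promoter pileups of the 8 genes in each library. Farther in, 7 body summits of control had 9 to 17 reads and 4 of the over-expression library 7 to 15, the last of them 56.7 kb from the start in control and 55.1 kb in the over-expression library. KCNMB3, the next gene, overlaps the far end of PIK3CA, where no summit was called.

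PIK3CB encodes the beta catalytic subunit (chromosome 3, 138652698 to 138834928, minus strand). Its promoter had 22 reads (13.8 to 33.3) at 138834482 in the over-expression library, with a fold enrichment of 4.29 as the authors' peak caller gave it, and no control interval overlapped it. At an equal occupancy, with the 22 reads taken as exact and scaled for depth, control would have called it with a probability of 0.998. The nearest control summit lay 13659 bp away. In the body the order was the other way: control had 18 summits of 6 to 16 reads and the over-expression library 8 of 7 to 21 reads. Beyond the midpoint of the span, 91.1 kb from the start, control had 8 body summits and the over-expression library 1. Of the 19 control summits, 10 stood on a local background at the genome average, where 6 reads were enough for a call. The highest body summits of the over-expression library, 19 (11.4 to 29.7) and 21 reads (13.0 to 32.1), lay 50.2 and 49.8 kb in, where control had 14 reads (7.7 to 23.5) at each of 2 summits.

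PIK3R1 encodes the regulatory subunits that bind and restrain the catalytic subunit, and shorter forms start inside the gene (chromosome 5, 68215756 to 68301821, plus strand). At the outer start, control had summits of 12 reads (6.2 to 21.0) and 13 reads (6.9 to 22.2), and the over-expression library had 3 in 1 interval of 1795 bp, with 20 (12.2 to 30.9), 16 (9.1 to 26.0) and 12 reads (6.2 to 21.0). The summits marked in the sequence above lay 80 bp apart, 73 bp before the start in control and 153 bp before it in the over-expression library. This was the only promoter pair within 100 bp of each other at the 8 genes, and its pileup was 1.85 times higher in the over-expression library (0.86 to 4.14), an interval that includes equality. The second start, 72.8 kb in, also had a peak in both libraries. Control had 12 reads (6.2 to 21.0) 71 bp after that start. The over-expression library had 19 reads (11.4 to 29.7) 17 bp before it, 1.75 times the control level (0.81 to 3.96). The latter had a fold enrichment of 8.24 by the authors' caller, the highest at any of the 8 genes in either list. No summit lay within 1000 bp of the other listed starts of PIK3R1. At the far end, control had 15 reads (8.4 to 24.7) and the over-expression library 11 (5.5 to 19.7), 171 bp apart and both just outside the span.

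PDPK1 encodes the kinase that activates AKT (chromosome 16, 2538021 to 2603188, plus strand). The over-expression library had a promoter summit of 16 reads (9.1 to 26.0) at 2538447, with a fold enrichment of 3.15 by the authors' caller. Control had none, and the probability of a control call at equal occupancy was 0.898. Each library had 6 body summits, of 9 to 17 reads in control and 11 to 20 in the over-expression library. The far end had 2 over-expression summits, of 18 (10.7 to 28.4) and 15 reads (8.4 to 24.7), both inside the neighbouring pseudogene LOC652276, and none in control. PDPK1 has near-identical copies, so reads may have been placed on the wrong copy and its summits are uncertain. The local background at its summits had a median of 2.01 times the genome average in control and 3.07 times in the over-expression library. Far-end summits were called at 1 of the 8 genes in control and 2 in the over-expression library, against 11.7% and 10.7% of all genes.

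AKT1 encodes a broadly expressed AKT kinase (chromosome 14, 104769349 to 104795748, minus strand). The lists hold 0 summits in its span or the 5 kb on either side in both libraries. The authors' peak numbers ran on across the gene with 0 missing in each list, so no listed peak is lacking there. Neither library had a summit at 7.23% of all genes and at 0.785% of the 7773 genes at least as long as AKT1. AKT1 spans 26.4 kb, and 5133 of the 7773 span at least 50 kb, with more room for a summit. The 0.785% is therefore not the share for genes of the length of AKT1. The gap between the nearest summits was 173.6 kb in control and 88.9 kb in the over-expression library, and the closest lay 12.9 and 20.0 kb before the start. Local background at the summits on either side was 4.9 to 5.33 times the genome average in control and 3.96 to 8.04 times in the over-expression library. At those backgrounds a summit needed 17 to 18 reads in control and 14 to 23 in the over-expression library to be called, against 6 at the genome average. The background inside AKT1 itself is not known from the lists, so the reads needed for a call there are not known either, and the part of the background in the absence of calls was not tested.

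AKT2 encodes the AKT kinase best known for its part in insulin action (chromosome 19, 40230317 to 40285345, minus strand). At the start, 21 reads (13.0 to 32.1) were stacked at 40285073 in the over-expression library. The fold enrichment of this summit by the authors' caller was 3.25. Control had no interval there, though it would have called an equal occupancy with a probability of 0.972. The promoter table lists a second start at 40265351, and whether transcription begins there was not tested. The over-expression library had 31 reads (21.1 to 44.0) 169 bp before it, marked in the sequence above, and 30 reads (20.2 to 42.8) 791 bp before it. Control had no interval at either summit. Its closest body summits lay 10.2 kb and 28.1 kb from the outer start, with 29 (19.4 to 41.6) and 35 reads (24.4 to 48.7). Pileups at AKT2 were the highest of the 8 genes, with medians of 28.5 reads in control and 23.5 in the over-expression library, while its median fold enrichments by the authors' caller, 2.68 and 3.0, were the lowest in each list. The local background there had a median of 5.03 times the genome average in control and 5.55 times in the over-expression library. Copy number was not measured, and its part in this background was not tested. AKT2 was the gene with more body summits in the over-expression library, 8 against 5.

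**Figure D2:**
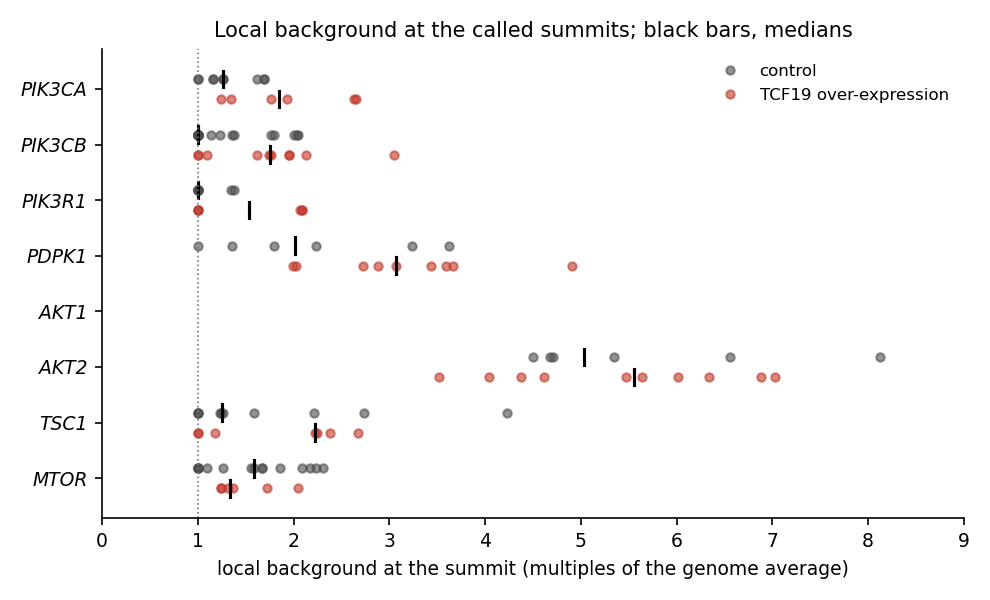
Local background at each called summit in multiples of the genome average (horizontal axis), by gene, for control (grey) and over-expression (red), with black bars at the medians. AKT2 summits lie at 3.52 to 8.13 times the genome average, a range that some PDPK1 summits and 1 TSC1 summit also reach, whereas most summits of PIK3CB and PIK3R1 lie between 1 and 2.1; AKT1 has no summit.

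TSC1 encodes a subunit of the TSC complex, which inhibits mTOR (chromosome 9, 132891349 to 132945378, minus strand). The over-expression interval at the start held 16 reads (9.1 to 26.0) at 132945084 and 15 reads (8.4 to 24.7) at 132944307. Control had 16 reads (9.1 to 26.0) at 132944272, inside an overlapping interval, and this summit counts as body because it lies 1106 bp from the start of the span. The difference between the libraries at TSC1 is therefore one summit of a wider interval, 1157 bp against 672 bp, and the 1000 bp window decides the call. The start of GFI1B, a blood transcription factor gene, lies within 1000 bp of the same over-expression summit. In the body, control had 8 summits of 7 to 16 reads and the over-expression library 4 of 7 to 15 reads. At 9.7 kb the summits of the libraries lay 2 bp apart, control with 14 reads (7.7 to 23.5) and the over-expression library with 7 (2.8 to 14.4). Relative to the genome averages the latter was 0.55 times the control pileup (0.19 to 1.47), an interval that includes equality. This was the lowest ratio among the TSC1 pairs, and the pair 1.1 kb from the start stood at 1.04 times (0.48 to 2.24).

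MTOR encodes the kinase at the end of the route (chromosome 1, 11106535 to 11262551, minus strand). Its promoter peaks were low in both libraries: 11 reads (5.5 to 19.7) at 11262493 in control and 13 reads (6.9 to 22.2) at 11262315 in the over-expression library. The control summit had a −log10 q-value of 1.7, and at a q-value of 0.01 it would not have been called. In the body the libraries differed more. Control had 13 summits of 8 to 24 reads and the over-expression library 5 of 8 to 15 reads, none of them beyond the midpoint of the span at 78.0 kb, where control had 8. The highest control summit, 24 reads (15.4 to 35.7) at 11202970, lay 22 bp from an over-expression summit of 8 reads (3.5 to 15.8). Relative to the genome averages the latter was 0.37 times the control pileup (0.14 to 0.85). Of 14 pairs within 100 bp at the 8 genes, this was the only 1 whose interval did not include equality. The intervals were not adjusted for the number of pairs. The matching share over all 39201 pairs within 100 bp is not given here. The pair also holds the highest control summit of MTOR, a choice that favours a lower partner. It therefore does not by itself show a decrease at MTOR. One control summit, 72.7 kb in with 14 reads, lies inside ANGPTL7, a gene that sits within MTOR.

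Across the 8 genes, control had 72 summits and the over-expression library 54. Of these, 5 in control and 10 in the over-expression library were promoter summits, 61 and 37 body, 1 and 3 far end, and 5 and 4 in the flanks. The over-expression library thus had 2.0 times as many promoter summits and 0.607 times as many body summits as control. Over all genes with a strand these ratios were 1.35 and 0.625, so the body ratio of the 8 genes was near that of all genes. Body summits numbered 8.7 per 100 kb in control and 5.28 in the over-expression library, against 6.23 and 3.89 over all genes. Control had more body summits at 5 of the 7 genes with any (PIK3CA, PIK3CB, PIK3R1, TSC1 and MTOR), the over-expression library more at 1 (AKT2), and PDPK1 had as many in each. Of all genes with a body summit, 63.0% had more in control and 20.7% more in the over-expression library.

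**Figure D3:**
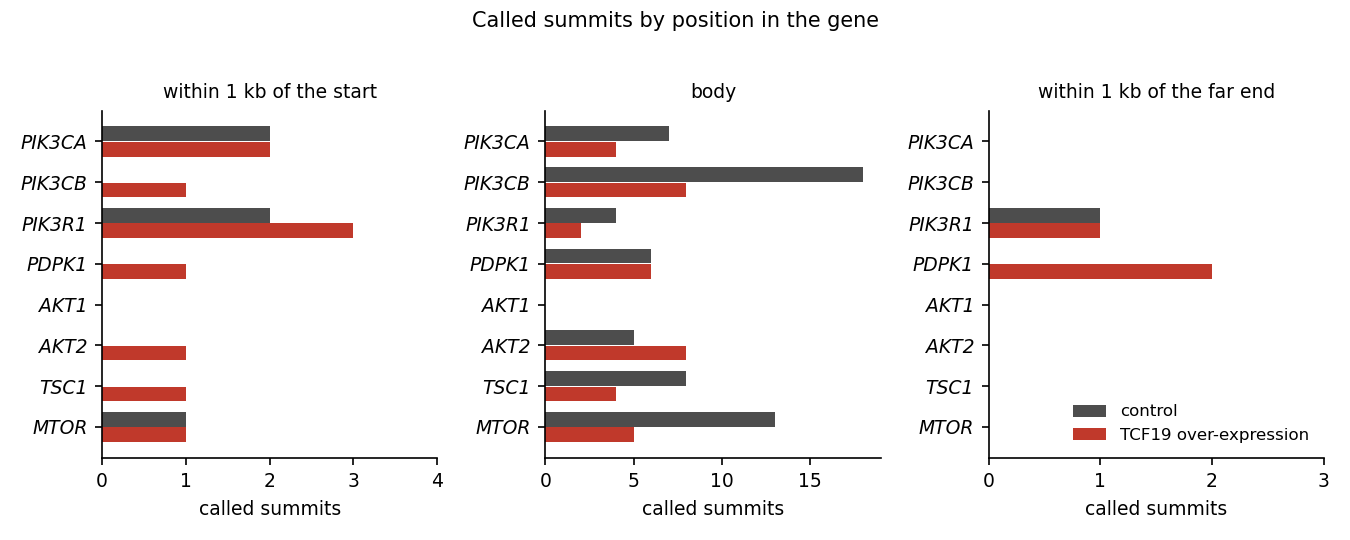
Number of called summits (horizontal axes) at the start, in the body and at the far end of each gene, for control (grey) and over-expression (red). Promoter bars are as long or longer in the over-expression library at the 7 genes with any, and body bars are longer in control at 5 of 7.

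Body summits were also counted on either side of the midpoint of each gene. In the 7 genes of at least 50 kb, 45.9% of the 61 body summits in control and 32.4% of the 37 in the over-expression library lay beyond the midpoint. Over 5133 genes of that length the shares were 49.7% and 49.4%. The gap between the libraries rested on PIK3CB and MTOR. In the other 5 genes, the order turned round, with 12 of 30 body summits beyond the midpoint in control and 11 of 24 in the over-expression library. PDPK1 had 2 in control and 4 in the over-expression library, PIK3CA 1 and 2, and AKT2 4 and 2, while PIK3R1 and TSC1 had as many in each. The split at the midpoint was chosen after the values were seen. PIK3CB and MTOR were set aside because of these same values, so the loss of the gap without them follows from that choice.

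Intervals of the 2 lists overlapped in part. At the 8 genes, 28 of 66 control intervals (42.4%) overlapped an over-expression interval by at least 1 bp, and 26 of 45 over-expression intervals (57.8%) overlapped a control interval. Over all intervals on chromosomes 1 to 22 and X the shares were 43.0% in control and 67.4% in the over-expression library. Of the 38 control intervals without a counterpart, 7 reached a probability of 0.95 or more of a call in the other library at equal occupancy, and of the 19 over-expression intervals without one, 11 had. For the rest, the lack of a counterpart was not detectable as a difference at this depth. Each probability took the reads at a called summit as its true occupancy, without their counting error. Summits called in 1 list alone tend to be high in that list. The probabilities therefore lean high, and reaching 0.95 does not show a difference either. The 11 included the promoters of PIK3CB and AKT2, the second start of AKT2 and the far end of PDPK1, and the 7 were all body intervals. The matching counts over all intervals are not given here, so the 7 and 11 describe these genes and do not set them apart.

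Where both libraries had a summit at nearly the same place, pileups could be set side by side. Within 250 bp there were 27 such pairs. All 5 promoter pairs (2 each at PIK3CA and PIK3R1, 1 at MTOR) had the higher relative pileup in the over-expression library, by 1.02 to 1.85 times, with a median log2 ratio of 0.78. Of the 18 body pairs, 6 were higher there, with a median log2 ratio of -0.27. Over all genes, 81.4% of 6199 promoter pairs were higher in the over-expression library, with a median log2 ratio of 0.39, and 56.6% of 20995 body pairs, with a median of 0.06. Pairs share the depth of their libraries and several lie in 1 gene, so they are not replicates.

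**Figure D4:**
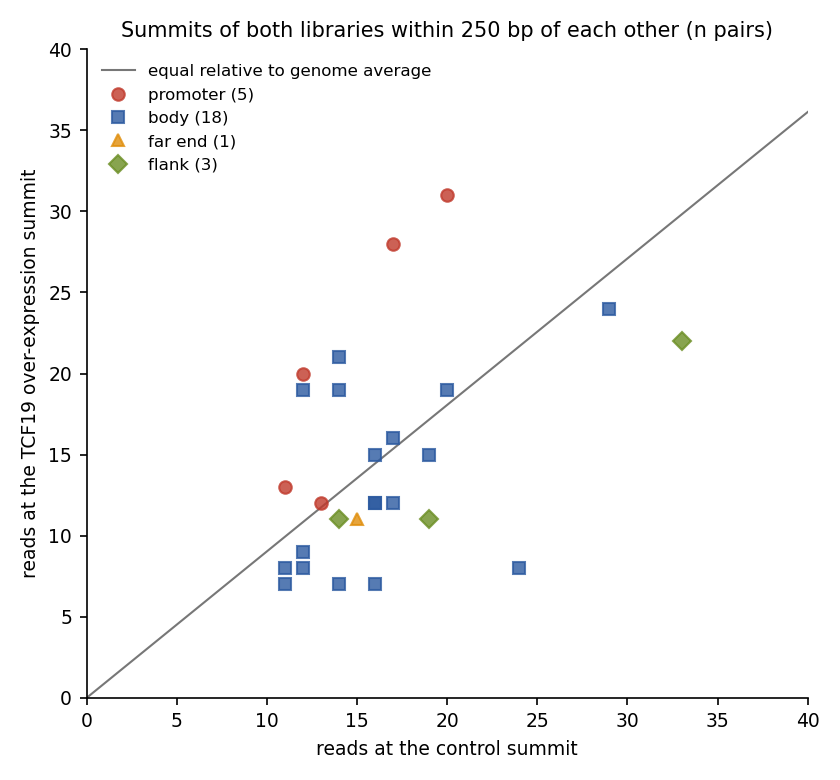
Reads at the over-expression summit (vertical axis) against reads at the control summit (horizontal axis) for the 27 pairs within 250 bp, by position in the gene; the line marks equal pileup relative to each genome average. The 5 promoter pairs lie above the line, and the body pair of MTOR at 24 and 8 reads lies farthest below it.

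At other genes of the route, promoter summits were also more frequent in the over-expression library, as they were over all genes. A list of 34 was set, of which 26 had a strand in the promoter table. Of these, 20 had a promoter summit in the over-expression library (61.9% of all genes) and 15 in control (49.9%), all 15 of them in both. The over-expression library alone had one at 5 (16.5% of all genes) and control alone at 0 (4.58%). The 5 seen in the over-expression library alone were INSR, the insulin receptor gene, with 17 reads (9.9 to 27.2); IRS2, an adaptor of that receptor, with 21 (13.0 to 32.1); PIK3CD, the delta catalytic subunit, with 23 (14.6 to 34.5); INPPL1, a lipid phosphatase gene, with 21 (13.0 to 32.1); and ULK1, an autophagy kinase under mTOR control, with 20 (12.2 to 30.9).

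Of the 6 PI3K subunit genes on this list, which leaves out PIK3CA, PIK3CB and PIK3R1, PIK3CD and PIK3R4 had one, and PIK3CG, PIK3R2, PIK3R3 and PIK3C3 had none in either library. The 3 mTOR complex genes RPTOR, RICTOR and MAPKAP1 had one in both libraries, as did the 2 kinase genes SGK1 and GSK3B. RPTOR, the scaffold of the complex that TSC1 restrains, had 15 reads (8.4 to 24.7) for control and 13 (6.9 to 22.2) after over-expression. These reads are unscaled and their intervals overlap. Its fold enrichment by the authors' caller was 3.32 in control and 3.81 in the over-expression library. The highest promoter pileups of the list were those of PIK3CD, RHEB, IRS2, INPPL1 and RPS6KB1. At RHEB, the small GTPase that activates mTOR, control reached 13 reads (6.9 to 22.2) and the over-expression library 22 (13.8 to 33.3). RPS6KB1, a kinase phosphorylated by mTOR, had 17 (9.9 to 27.2) and 21 (13.0 to 32.1). TSC2, the partner of TSC1, and IRS1 had no promoter summit in either library. Body summits of the 26 genes numbered 236 in control and 146 in the over-expression library, with more in control at 16 genes (63.0% of all genes with a body summit) and more in the over-expression library at 7 (20.7%).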

How the data were processed

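Peak lists of 2 ChIP-seq libraries, 1 per group, were analysed. The authors used BWA 0.7.12, MACS2 2.1.0 and the build hg38, per the submitters' processing notes. For parameters, duplicate reads and any input, the sources used here state nothing. The deposited lists give per summit a score, a fold enrichment (a ratio), a −log10 p-value and a −log10 q-value, starting at a q-value of 0.05, and the summit's offset in bases. The score was not used further.

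Whole pileups were solved from the deposited fold, (pileup + 1) / (background + 1), and the Poisson tail in the −log10 p-value, within 0.001, with 5 control and 4 over-expression summits unsolved. At 100.0% of summits above the genome average, reads per 10 kb of background came out whole (within 0.05), for fragments of 273 and 276 bp, the best of 150 to 400 bp over backgrounds under 20 reads. Pileup intervals are exact Poisson and ratio intervals exact conditional binomial (Clopper-Pearson), at 95%. Reads may hold PCR copies. Summits on chromosomes 1 to 22 and X were compared with RefSeq spans (GRCh38.p14); strand came from the promoter table, which held 15813 of 19974 protein-coding genes and none on chromosome 8.

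The members and lists were chosen with earlier results of these data known. Named genes are the 8 members and, of the 34 other genes of the route, those with a promoter summit in 1 library alone and the 4 highest, ties included; others named were chosen after their values were seen. Code ran in Python 3.11.15 with NumPy 2.4.6, SciPy 1.17.1, pandas 2.3.3 and matplotlib 3.10.9 and was tested on simulated data. Alternatives were other windows, thresholds, overlaps, pairings and scalings.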

Additional observations from a re-analysis of the deposited data

How the results depend on the processing

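Of 43 alternative values for 9 results, 34 stayed within 1.5 times the main value, or within its counting interval for the pileup ratio. With a fold enrichment of at least 4, summits at the 8 genes fell to 35 in control and 18 in the over-expression library, shared intervals to 8 and 7, and genes with a far-end summit in the over-expression library to 1. That last count was also 1 without PDPK1. Counting intervals as shared only when summits lay within 100 bp left 14 in each list. From any listed start, 5 genes had a control summit in place of 3. Promoter counts in the over-expression library ran from 5 at a fold of at least 4 to 7, and in control from 2 at that fold or at a q-value of 0.01 to 5. At a fold of at least 4, PDPK1 and AKT2 lost their promoter summits in the over-expression library. The pileup ratio at PIK3R1 was 1.67 unscaled and 1.67 scaled by the median of all pairs, and the median over 3 genes paired within 250 bp was 1.82. Settings with any listed start, without AKT2 or without PDPK1 were chosen after seeing the data. No paired analysis was possible because each group had 1 library. Where the local background was high, as at AKT2 summits, more reads were needed for a call than at the genome average.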

Other observations

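Some summits near the 8 genes lie at or inside neighbours. At the start of CCNP, a cyclin family gene next to AKT2, both libraries had a peak 131 bp apart, control with 33 reads (22.7 to 46.3) and the over-expression library with 22 (13.8 to 33.3), 0.74 times the control level relative to the genome averages (0.41 to 1.31). Inside GFI1B, next to the TSC1 start, control had 19 reads (11.4 to 29.7) and the over-expression library 11 (5.5 to 19.7). Inside SPACA9, beyond the far end of TSC1, control had 18 reads (10.7 to 28.4) and the over-expression library 14 (7.7 to 23.5), in intervals that did not overlap.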
